A study of Mus musculus with 30 samples.

Results

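The mitochondrially encoded genes are the 37 genes whose symbol starts with mt-. They were found by symbol among the 55401 genes of the count tables, and comprise 13 protein-coding, 22 tRNA and 2 rRNA genes. Their counts were taken from nuclear RNA-seq of mouse embryonic stem (ES) cells, in 30 libraries that form 15 groups of 2 replicates and are held in 4 count tables. All values are exon counts, and a share is the percent of all exon counts of a library.

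The parental line is CGR8, a mouse ES cell line, with a control group and a group in IAA (indole-3-acetic acid, an auxin) for 4 h. SYAT cells come from a single homozygous clone of CGR8 in which both Srcap alleles carry YPet and an auxin-inducible degron (AID). This clone was transduced to express OsTir1 from an EF1a promoter, selected, and sorted for cells that lost YPet in IAA. In SYAT cells 500 µM IAA thus degrades SRCAP. SRCAP is the ATPase that exchanges H2A for the histone variant H2A.Z. SYAT cells were taken at 0, 2, 4, 6 and 8 h of IAA. For early G1 (EG1) and late G1 (LG1), SYAT cells were sorted by DNA content and an mCherry-tagged mitotic degron, each with and without 1 h of IAA. The wtSRCAP and cdSRCAP cells are 1 clone each of SYAT cells, which express wild-type or catalytically dead SRCAP fused to mCherry after 24 h in 1 µg/mL doxycycline (dox), were sorted for mCherry, and were studied with and without 4 h of IAA. SYAT-derived controls were kept in auxinole, a Tir1 inhibitor. Cells were kept in serum with LIF, CHIR99021 and PD184352, and were changed to serum with LIF alone before the experiments. Nuclei were released with mild detergents and washed by slow spins before RNA extraction. IAA removes SRCAP as a protein, so Srcap RNA does not check the IAA labels. The dox-induced SRCAP was cloned from cDNA of CGR8 cells, so its RNA can add to the Srcap counts. Srcap was at 47.9 to 74.0 CPM (of exon counts) in wtSRCAP and cdSRCAP cells, which overlapped with 40.3 to 63.5 CPM in the SYAT time course and 47.4 to 61.6 CPM in EG1 and LG1. It was at 20.2 to 24.8 CPM in CGR8 cells.

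The mitochondrial chromosome is a small circle. It is copied into long RNAs from each strand, which are cut at the tRNAs that lie between most of the mRNAs and rRNAs. Its mRNAs encode core subunits of the respiratory chain (mt-Nd genes, complex I; mt-Cytb, complex III; mt-Co genes, complex IV) and of the ATP synthase (mt-Atp genes). The rRNAs mt-Rnr1 and mt-Rnr2 form the small and large subunit of the mitochondrial ribosome. These RNAs are made and kept inside mitochondria, so their share in a nuclear preparation is commonly read as a measure of cytoplasmic carry-over. Pieces of mitochondrial DNA have also been copied into the nuclear chromosomes, where they stand as pseudogenes.

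Exon counts summed to between 12236493 and 60214521 per library. Of 753533403 exon counts in all, 11324511 fell on the 37 genes. The largest contribution of a single gene was that of ENSMUSG00000118642.1, which is not in the annotation used here and took between 2.58% and 23.9% of a library. The 12 markers of ES cells (Pou5f1, Nanog and others) took 0.259% to 0.737% of the exon counts, whereas 6 fibroblast or feeder markers took 0.000528% to 0.00485%, with Postn at 0 in every library. Markers of endoderm took 0.000327% to 0.00221% and those of neural cells 0.00405% to 0.0172%. The replicates are described as biological duplicates by the study, and no label says which of them share a day or a preparation.

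A stretch of the mitochondrial chromosome was nearly empty in the tables. The 11 genes that lie wholly within chrM:6390-11042 (mm10), 6 protein-coding and 5 tRNA genes, had 31 counts in all 30 libraries together, and no single count above 8. Of these, mt-Ts1, mt-Td, mt-Co2, mt-Tk, mt-Atp8, mt-Atp6 and mt-Co3 were at 0 in every library. The other four were mt-Tr with 21 counts, mt-Nd3 with 6, mt-Nd4l with 3 and mt-Tg with 1. The 24 genes outside the stretch had 6468390 counts, and mt-Co1 and mt-Nd4, which reach into it at its ends with 31.3% and 63.6% of their length, had 4856090 counts. mt-Co2, mt-Co3, mt-Atp6 and mt-Atp8 encode subunits that every respiring cell makes, so they are given here only as listed at 0.

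The bounds of this stretch of 4653 bases were set by its nuclear copy. Genes of the stretch recur in the same order as 7 annotated pseudogenes on the minus strand of chromosome 1, within chr1:24611535-24616197 (mm10). Gm28661 (a copy of mt-Co2, 681 aligned bases), Gm10925 (mt-Atp6, 678), Gm28437 (mt-Co3, 783), Gm10222 (mt-Nd4l, 294) and Gm28439 (mt-Nd4, 876) were 100% identical to the mitochondrial gene. Gm28438 (mt-Nd3, 345 aligned bases) was 99.7% identical and Gm29216 (mt-Co1, 483) 99.8%. The pairs below show how little separates the copies. Each line holds the first 60 bases of a gene, 5′ to 3′, or for mt-Co1 the 60 bases from position 1063 of the gene, where the stretch begins. Capitals mark the base at which gene and copy differ, and lines without capitals are identical. The sequences were taken from the GENCODE transcripts of the mm10 build.
mt-Co2, chrM:7013-7072, plus strand: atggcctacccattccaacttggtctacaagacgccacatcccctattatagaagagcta
Gm28661, chr1:24615506-24615565, minus strand: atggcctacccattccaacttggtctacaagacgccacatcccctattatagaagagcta
mt-Nd4l, chrM:9877-9936, plus strand: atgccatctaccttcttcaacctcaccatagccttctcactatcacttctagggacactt
Gm10222, chr1:24612641-24612700, minus strand: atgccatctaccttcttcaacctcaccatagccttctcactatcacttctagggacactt
mt-Nd3, chrM:9459-9518, plus strand: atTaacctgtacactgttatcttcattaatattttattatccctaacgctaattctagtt
Gm28438, chr1:24613060-24613119, minus strand: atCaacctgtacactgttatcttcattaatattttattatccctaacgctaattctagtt
mt-Co1, chrM:6390-6449, plus strand: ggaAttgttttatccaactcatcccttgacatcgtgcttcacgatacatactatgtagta
Gm29216, chr1:24616129-24616188, minus strand: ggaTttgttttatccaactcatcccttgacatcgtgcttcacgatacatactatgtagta

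Counted from 1 at the 5′ end of the printed bases, mt-Nd3 and Gm28438 differ by T3C, and mt-Co1 and Gm29216 by A4T. A read was 75 bases long. Of all windows of 75 bases, 99.5% in mt-Co2, 99.5% in mt-Atp6, 99.9% in mt-Co3, 98.7% in mt-Nd4l and 97.8% in mt-Nd3 occur unchanged in an annotated nuclear transcript. The figure was 61.5% in mt-Nd4 and 39.8% in mt-Co1, 5.71% in mt-Nd2 and 1.66% in mt-Nd5, and 0% in mt-Nd1, mt-Nd6, mt-Cytb, mt-Rnr1 and mt-Rnr2. It was also 0% in mt-Atp8, which lies inside the stretch but between 2 annotated copies, so no transcript covers its counterpart on chromosome 1. The copies themselves held few counts over the 30 libraries. Gm28661 and Gm10925 had 0, Gm28439 had 3, Gm10222 172, Gm28437 216, Gm29216 987 and Gm28438 1903, the last with 3 to 415 counts per library. Copies elsewhere were Gm13340 on chromosome 2 (977 counts, 97.6% identical to mt-Co1), Gm13341 (279, 95.9% to mt-Co2), Gm13339 (7, 96.7% to mt-Nd2) and Gm4076 on chromosome 13 (19, 95.2% to mt-Nd5). How the counting treated reads with more than 1 place in the genome is not given in the sources used here, and its part in the zeros was not tested. Every share given here is therefore a share of those mitochondrial counts that the tables hold.

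**Figure D1:**
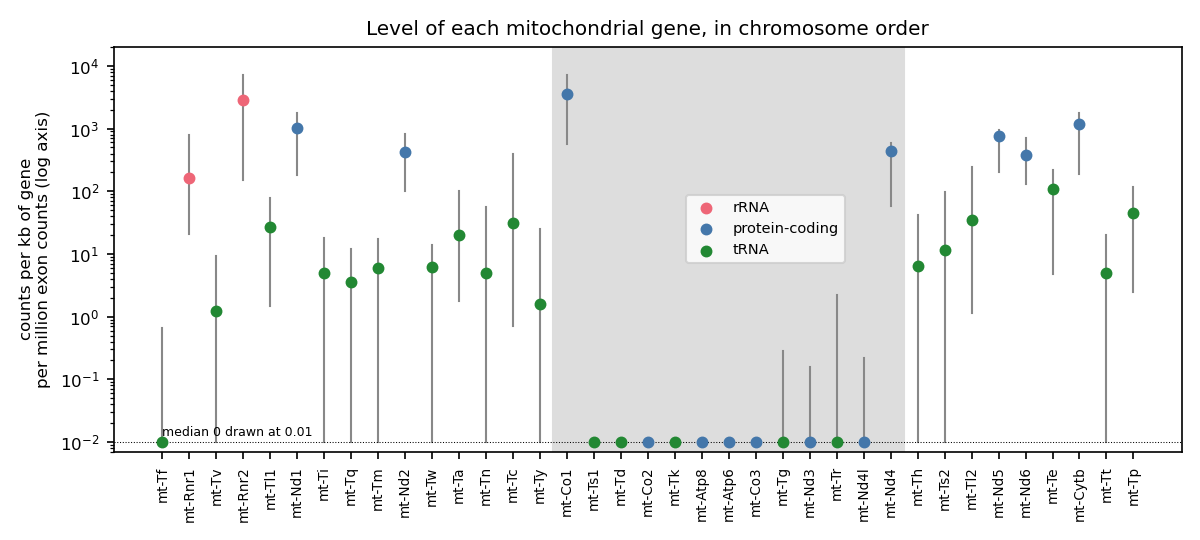
Level of each of the 37 mitochondrial genes in RPKM, counts scaled by gene length and by the exon total of the library (log axis), in the order of the genes along the chromosome, with points for the median, coloured by class, and lines from the lowest to the highest of 30 libraries (0 is drawn at 0.01). Grey marks the 13 genes that lie wholly or partly in the stretch copied to chromosome 1, of which all but mt-Co1 and mt-Nd4 sit at a median of 0, as does mt-Tf outside it.

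Outside the stretch the level per length ranged widely. In RPKM, the count scaled by the length of the gene in kilobases and by the exon total of the library, mt-Co1 had the highest median (3518 over the 30 libraries, range 563 to 7256), followed by mt-Rnr2 (2873, 149 to 7063). After them came mt-Cytb (1183), mt-Nd1 (1024), mt-Nd5 (764), mt-Nd4 (432), mt-Nd2 (428), mt-Nd6 (377) and mt-Rnr1 (164). With all counts of a gene divided by only its bases outside the stretch, mt-Co1 had a median of 5118 and mt-Nd4 of 1185. Counts are held per gene, so this scaling assumes that none fell inside the stretch, which was not tested. On this scale mt-Nd5, which was above mt-Nd4 in 30 of 30 libraries over the full length, was above it in 4 of 30. The order of other neighbours was not firm either. Over the full length mt-Co1 exceeded mt-Rnr2 in 20, mt-Rnr2 exceeded mt-Cytb in 22, and mt-Nd4 exceeded mt-Nd2 in 7 of 30. mt-Co1 and mt-Rnr2 together made 67.4% of all mitochondrial counts, and protein-coding genes made 70.3%, rRNA genes 29.5% and tRNA genes 0.196%. Over the 37 genes, Spearman's correlation of the counts between pairs of libraries ran from 0.825 to 0.997 (435 pairs, median 0.944). This is across genes, which are not replicates, and the zeros of the stretch are shared by all libraries.

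The tRNA genes were hardly covered, with 117 to 4499 counts in all per library. At 59 to 75 bases they are no longer than a read. The 4 with the highest counts over all libraries were mt-Te (4459), mt-Tl2 (3757), mt-Tc (3663) and mt-Tp (2847), which carry glutamate, leucine, cysteine and proline, and the lowest were mt-Ts1, mt-Td and mt-Tk with 0. Their levels differed between tables. mt-Tl2 had a median of 134 RPKM in CGR8 cells, 22.8 in the time course, 2.59 in EG1 and LG1 and 85.0 in wtSRCAP and cdSRCAP cells, and mt-Tc had 91.3, 69.8, 9.50 and 25.9. Both were thus lowest in the sorted G1 cells, unlike mt-Te and mt-Tp. In the same order mt-Te had 18.9, 180, 124 and 34.5, and mt-Tp had 45.1, 62.9, 83.7 and 24.0, highest in the sorted G1 cells. mt-Tf, at the start of the transcripts and outside the stretch, had 1 count. The sequences of the most counted tRNA and of a tRNA in the empty stretch are shown for their length and have no capitals.
mt-Te, chrM:14071-14139, minus strand: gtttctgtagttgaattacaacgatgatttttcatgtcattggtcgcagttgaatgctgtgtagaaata
mt-Tk, chrM:7700-7764, plus strand: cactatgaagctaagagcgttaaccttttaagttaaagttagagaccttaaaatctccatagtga

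The summed share of the mitochondrial genes ran from 0.215% to 2.44% of the exon counts, an 11.3-fold range with a median of 1.82%. In CGR8 cells it was 0.575% and 1.06% without IAA, and 1.08% and 2.01% with it. In the SYAT time course it was 2.02% and 2.04% at 0 h, 2.35% and 1.97% at 2 h, 2.33% and 1.85% at 4 h, 2.44% and 0.529% at 6 h, and 2.38% and 1.80% at 8 h. Replicate 2 at 6 h thus stood apart, while the other 9 libraries of the time course lay between 1.80% and 2.44%. EG1 controls had 2.15% and 1.70%, EG1 cells with IAA 2.28% and 1.83%, LG1 controls 2.40% and 1.85%, and LG1 cells with IAA 2.38% and 1.69%. The wtSRCAP and cdSRCAP libraries lay between 0.215% and 0.808%, a range that also holds CGR8 control replicate 1 and SYAT 6 h replicate 2. The share was 0.609% and 0.620% in wtSRCAP controls, 0.215% and 0.683% in wtSRCAP cells after IAA, 0.606% and 0.633% in cdSRCAP controls, and 0.808% and 0.728% in cdSRCAP cells after IAA. Here replicate 1 of wtSRCAP cells after IAA stood apart. The tables were not tested against each other, since line, sorting and preparation change together with the table and cannot be told apart.

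**Figure D2:**
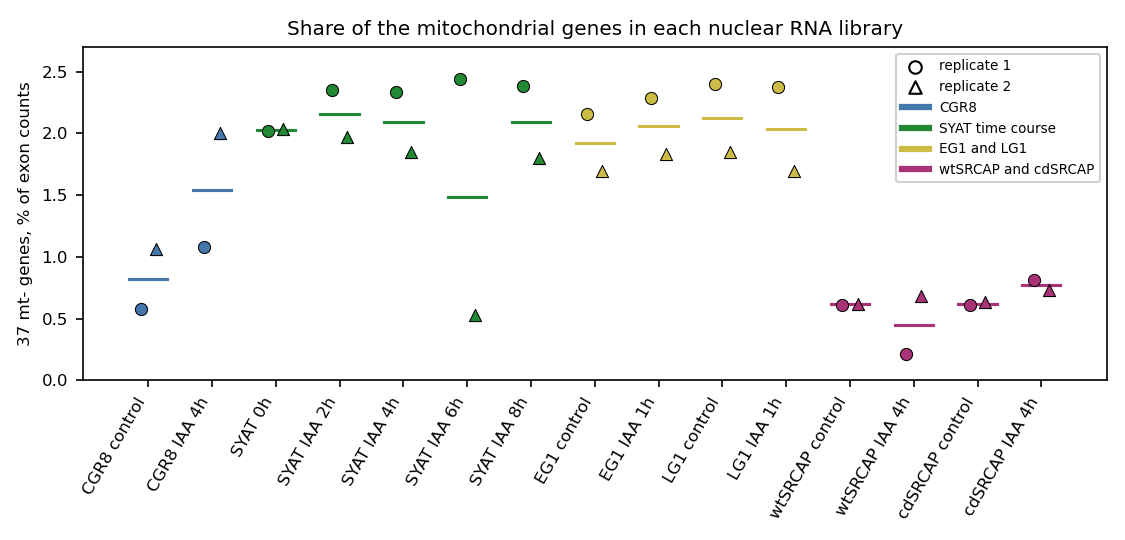
Summed share of the 37 mitochondrial genes in each library, in percent of exon counts, for the 15 groups, with circles for replicate 1, triangles for replicate 2 and a bar at the mean of both. The share was above 1.6% in all EG1 and LG1 libraries and below 0.9% in all wtSRCAP and cdSRCAP libraries, with SYAT IAA 6 h replicate 2 (0.529%) and wtSRCAP IAA 4 h replicate 1 (0.215%) far below their replicates.

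Replicates differed in a patterned way. Replicate 1 was higher than replicate 2 in all 4 IAA groups of the time course and in all 4 groups of EG1 and LG1, by 1.19 to 1.41 times apart from the 4.62 times at 6 h. In CGR8 cells replicate 2 was higher, by 1.84 times in the control and 1.86 times after IAA. In wtSRCAP cells after IAA replicate 2 was 3.17 times as high as replicate 1. The pooled standard deviation of the log2 share between replicates was 0.63 in CGR8 cells, 0.72 in the time course, 0.27 in EG1 and LG1, and 0.59 among wtSRCAP and cdSRCAP libraries.

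The mitochondrial genes differed by unequal factors between a low library and its replicate. In SYAT cells at 6 h, replicate 2 had a share of mt-Nd1 at 0.12 times that of replicate 1 (3560 against 28000 counts, with exon totals of 19077973 and 17540823), of mt-Nd2 at 0.16, of mt-Cytb at 0.17, of mt-Rnr2 at 0.18 (38538 against 196007), and of mt-Co1 (20978 against 96335) and mt-Nd4 at 0.20. In the same pair mt-Nd5 was at 0.47 (13110 against 25560), mt-Rnr1 at 0.60 (8562 against 13115) and mt-Nd6 at 0.66 (3673 against 5090). mt-Nd6 is the only protein-coding gene read from the opposite strand, and it lies next to mt-Nd5. Among the tRNAs of that pair, mt-Te, the neighbour of mt-Nd6 on its strand, was at 0.08 (22 against 249 counts), whereas mt-Tl1, between mt-Rnr2 and mt-Nd1, was at 1.13 (81 against 66 counts).

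Part of this order recurred in the other pairs. In wtSRCAP cells after IAA, replicate 2 exceeded replicate 1 by 3.97 times in mt-Co1 (0.345% against 0.0870% of exon counts), 3.71 times in mt-Cytb, 3.61 times in mt-Nd4, 3.59 times in mt-Nd1, 3.50 times in mt-Nd2 and 2.16 times in mt-Rnr2. The ratio was 1.80 in mt-Nd5 (0.0668% against 0.0372%), 1.21 in mt-Nd6 (0.00825% against 0.00683%) and 0.79 in mt-Rnr1 (0.00196% against 0.00248%, from 518 and 303 counts). In the CGR8 controls, replicate 2 exceeded replicate 1 by 2.32 times in mt-Co1 and 2.06 times in mt-Nd1, but by 1.67 times in mt-Nd5, 1.48 times in mt-Nd6 and 1.03 times in mt-Rnr2, and mt-Rnr1 was lower, at 0.41. The CGR8 pair after IAA, which differed as much in its summed share, had another order. There replicate 2 exceeded replicate 1 most in mt-Rnr2 (3.26 times) and mt-Rnr1 (3.07 times), while mt-Co1 (1.61 times) was close to mt-Nd5 (1.503 times) and mt-Nd6 (1.53 times). The rRNAs thus had no common place in the order, with mt-Rnr2 among the lowest ratios in the SYAT pair and near 1 in the CGR8 controls.

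**Figure D3:**
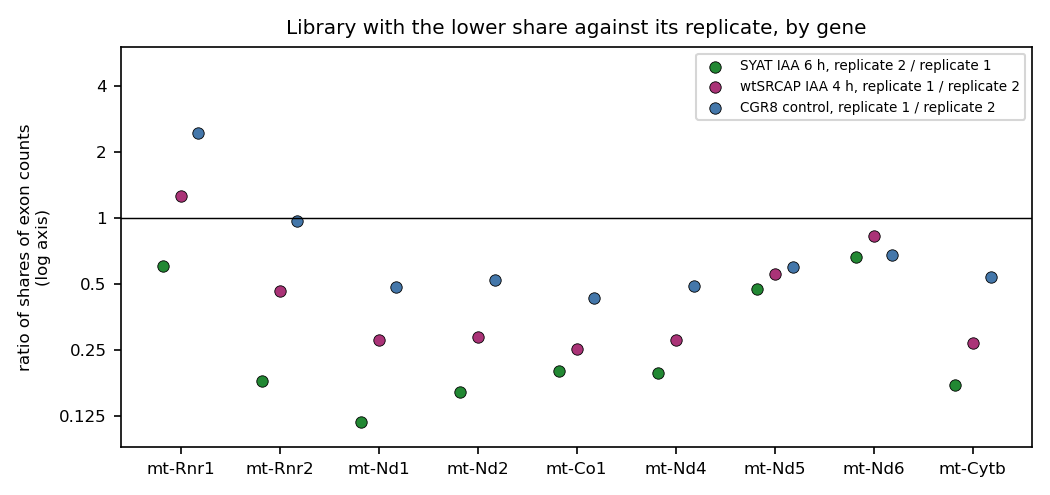
Share of exon counts of each abundant mitochondrial gene in a library with a low mitochondrial share, divided by the share in its replicate (log axis), for 3 pairs of libraries, with 1 point per gene and pair. mt-Nd5, mt-Nd6 and mt-Rnr1 lie closer to 1 than mt-Nd1, mt-Nd2, mt-Co1, mt-Nd4 and mt-Cytb in the SYAT and wtSRCAP pairs, with mt-Nd1 at 0.12 and mt-Nd6 at 0.66 in the SYAT pair.

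In each of the 4 tables, the library with the lowest mitochondrial share had the highest proportion of mt-Nd5 and of mt-Nd6 among its mitochondrial counts, and the lowest proportion of mt-Co1. mt-Nd5 made 16.1% of the mitochondrial counts in CGR8 control replicate 1 (8.76% to 14.6% in the other CGR8 libraries), 13.002% in SYAT 6 h replicate 2 (5.81% to 9.06%), 8.19% in LG1 IAA replicate 2 (6.91% to 7.90%) and 17.3% in wtSRCAP IAA replicate 1 (9.79% to 14.8%). The ratio of mt-Nd6 to mt-Cytb counts was 0.34 against 0.13 to 0.27 in CGR8 cells, 0.54 against 0.14 to 0.21 in the time course, 0.159 against 0.131 to 0.156 in EG1 and LG1, and 0.32 against 0.10 to 0.26 among wtSRCAP and cdSRCAP libraries. This comparison was chosen after the values were seen and is given without a test. In EG1 and LG1 it rests on a small gap, since EG1 control replicate 2 had nearly the same share (1.699% against 1.693%, with overlapping 95% Wilson intervals) but 7.74% mt-Nd5 and 47.8% mt-Co1, against 44.2% mt-Co1 in LG1 IAA replicate 2. mt-Nd6 ranged 1.88-fold over the time course in its share of exon counts, against 5.25-fold for mt-Co1 and 8.99-fold for mt-Nd1. These ranges rest on SYAT 6 h replicate 2. Without it mt-Nd6 ranged 1.29-fold, mt-Co1 1.16-fold and mt-Nd1 1.78-fold, so that mt-Nd6 then ranged more than mt-Co1. In CGR8 cells the ranges were 1.53-fold for mt-Nd6, 3.77-fold for mt-Co1 and 4.87-fold for mt-Nd1. The counting is not stated to use strand, so counts of mt-Nd6 cannot be told apart from those of RNA that runs antisense to it.

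**Figure D4:**
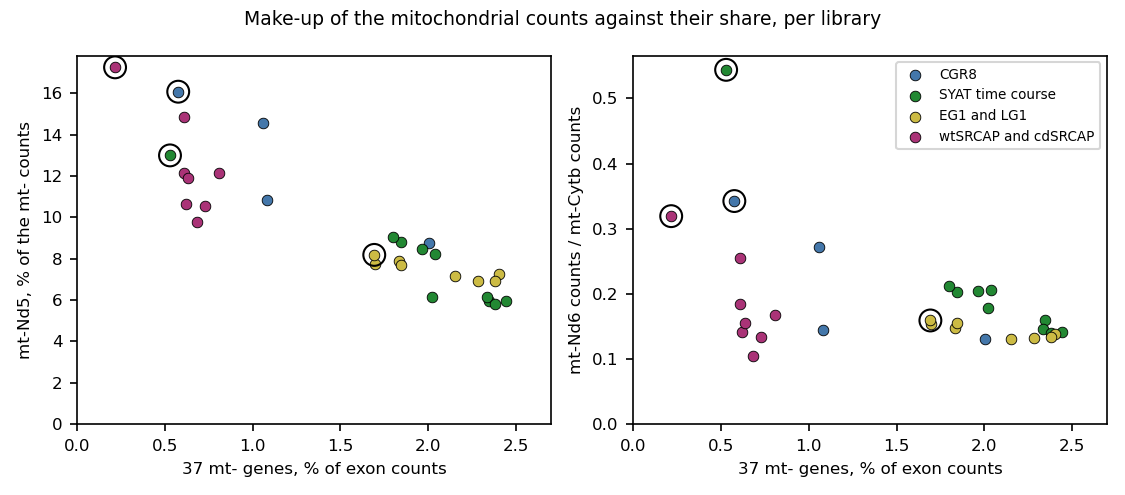
Proportion of mt-Nd5 among the mitochondrial counts in percent (left) and ratio of mt-Nd6 to mt-Cytb counts (right) against the summed mitochondrial share in percent of exon counts, with 1 point per library, coloured by table, and the library with the lowest share of each table circled. Each circled library has the highest value of its table on both vertical axes.

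The time course stood apart from the other tables in the ratio of mt-Rnr2 to mt-Co1. mt-Rnr2 made 34.6% to 46.0% of the mitochondrial counts in the SYAT time course and mt-Co1 20.8% to 28.8%, so that mt-Rnr2 had 1.20 to 2.05 counts per count of mt-Co1. In EG1 and LG1 cells, which are SYAT cells too, the ratio was 0.51 to 0.62, in CGR8 cells 0.20 to 0.49 and in wtSRCAP and cdSRCAP cells 0.14 to 0.27. The 10 libraries of the time course did not overlap in this ratio with the other 20. mt-Rnr1 made 2.04% to 8.49% of the mitochondrial counts in the time course and 0.288% to 2.19% elsewhere, so that here CGR8 control replicate 1 (2.19%) overlapped with the time course. Without the rRNA genes, the share of the mitochondrial genes in the time course was 0.282% to 1.27%, and 1.24% to 1.76% in EG1 and LG1. Whether rRNA was removed or polyA RNA selected is not given in the sources used here, and its part in this difference was not tested.

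Shares of other RNAs differed as well in the low libraries of the time course and of the wtSRCAP and cdSRCAP cells. In SYAT 6 h replicate 2, ENSMUSG00000118642.1 took 10.2% of the exon counts (3.06% to 8.47% in the other 9 libraries of the time course), 81 mRNAs of cytosolic ribosomal proteins took 3.71% (3.72% to 4.23%) and 6 nuclear RNAs such as Malat1 and Neat1 took 0.665% (0.730% to 0.986%). In wtSRCAP IAA replicate 1 the values were 23.9% (4.42% to 17.3% in the other 7), 2.32% (2.53% to 3.86%) and 0.532% (0.482% to 0.964%). The ribosomal protein mRNAs of SYAT 6 h replicate 2 were thus barely below the next library, and the nuclear RNAs of wtSRCAP IAA replicate 1 were within the range of the others. In the remaining tables the ribosomal protein mRNAs of the lowest library also lay within the range of the others, with 4.41% in CGR8 control replicate 1 (4.12% to 4.603%) and 3.82% in LG1 IAA replicate 2 (3.57% to 3.92%). The part of these differences in the mitochondrial share was not tested, but with ENSMUSG00000118642.1 taken out of the totals the shares were 0.588% against 2.65% in the replicates at 6 h and 0.283% against 0.726% in wtSRCAP cells after IAA. Over the 10 libraries of the time course, the mitochondrial share and that of ribosomal protein mRNAs gave Pearson's r = 0.57 (permutation p = 0.0163, adjusted p = 0.0650 over 4 relations) and Spearman's rho = 0.71 (permutation p = 0.0257, adjusted p = 0.103), and r = 0.59 without the 2 libraries farthest from the median. Over the 8 wtSRCAP and cdSRCAP libraries r was 0.57 (exact permutation p = 0.118, adjusted p = 0.171) and rho was 0.71 (exact permutation p = 0.0576, adjusted p = 0.115), and r = 0.73 without the 2 farthest. With the nuclear RNAs, r was 0.52 (permutation p = 0.128, adjusted p = 0.171; rho = 0.33, permutation p = 0.349, adjusted p = 0.466) in the time course and 0.28 (exact permutation p = 0.514, adjusted p = 0.514; rho = 0, permutation p = 1.0) in wtSRCAP and cdSRCAP cells. These turned to -0.22 and -0.41 without the 2 farthest libraries, so the relation with nuclear RNAs rested on those libraries. None of the 4 relations passed an adjusted p under 0.05. The libraries share line and preparation within a table, and shares of 1 total are not independent of each other.

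IAA in the parental CGR8 cells asks what IAA itself does without the degron. The mitochondrial share was 1.54% ± 0.655 (SD, n = 2) after 4 h of IAA and 0.817% ± 0.342 (SD, n = 2) in the controls. The groups did not overlap, but the lowest IAA library (1.08%) lay next to the highest control (1.06%). An exact permutation test of 2 against 2 libraries cannot give less than 0.3333, which was its two-sided p here. By edgeR's quasi-likelihood test (called at an absolute log2 fold change over 0.5 and an adjusted p under 0.05), none of the 25 mitochondrial genes that passed the filter on low counts was called, against 0.00988% of the 20250 genes tested. The lowest p-values were those of mt-Cytb, the complex III subunit (log2 fold change 1.12 ± 0.28 SE, edgeR adjusted p = 0.540) and mt-Nd1, a complex I subunit (1.24 ± 0.33 SE, edgeR adjusted p = 0.540). mt-Cytb took in the controls 0.0365% and 0.0679% of exon counts, and with IAA 0.0866% and 0.146%, and mt-Nd1 0.0317% and 0.0655%, and 0.0814% and 0.154%. Of the 25 genes, 22 had a log2 fold change above 0 and 12 an unadjusted p under 0.05 (1855 of all genes tested), with a median of 0.87 beside 0.00 over all genes. mt-Nd5 and mt-Nd6, with log2 fold changes of 0.20 ± 0.23 and -0.02 ± 0.22 (SE), lay nearer to 0 than the other protein-coding genes. DESeq2 called 0 of the 25, beside 92 genes higher and 48 lower of the 20250. The outcome changed with several settings, the filter and single libraries among them. Without the filter edgeR called 9 of 29 mitochondrial genes higher, beside 276 higher and 110 lower of all 30751 genes tested. The median log2 fold change of the mitochondrial genes was 0.62 without control replicate 1 and 1.36 without control replicate 2. It was 1.42 without IAA replicate 1 and 0.25 without IAA replicate 2.

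In SYAT cells the time course asks how RNA follows the loss of SRCAP. All 4 time points share the same pair of controls. The control libraries were nearly equal in mitochondrial share (2.03% ± 0.0108, SD, n = 2), and the IAA groups were at 2.16% ± 0.270 at 2 h, 2.09% ± 0.346 at 4 h, 1.49% ± 1.35 at 6 h and 2.09% ± 0.414 at 8 h (SD, n = 2 each), and in each of them 1 library lay below and 1 above both controls. Over all time points the 8 IAA libraries averaged 1.96% ± 0.632 (SD), and an exact permutation test against the 2 controls gave p = 0.844 (two-sided, adjusted p = 1.0 over 18 tests). Of the 23 mitochondrial genes tested, edgeR called none at 2, 4, 6 or 8 h, against 0%, 0%, 0.0677% (0.0312% higher, 0.0364% lower) and 0.00521% of the 19205 genes tested, and none had an unadjusted p under 0.05 at any time (753, 1747, 3099 and 2606 of all genes). DESeq2 also called none of the 23 at any time. The medians of their log2 fold changes were 0.16, 0.08, -0.27 and 0.06, beside 0.00, 0.02, 0.01 and 0.03 over all genes.

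The lowest p-values in SYAT cells belonged to tRNA genes with few counts. At 2 h they were mt-Tw, the tryptophan tRNA (8 and 15 counts at 0 h, 15 and 21 at 2 h; log2 fold change 0.73 ± 0.44 SE, edgeR adjusted p = 1.00), and mt-Tt, for threonine (18 and 12, then 25 and 21 counts; 0.68 ± 0.47). At 4 h they were mt-Ts2, a serine tRNA (13 and 35, then 7 and 20 counts; -0.77 ± 0.54, edgeR adjusted p = 0.775), and mt-Tw (12 and 18 counts; 0.44 ± 0.45). At 6 h they were mt-Th, for histidine (10 and 27, then 8 and 0 counts; -1.77 ± 0.95, edgeR adjusted p = 0.387), and mt-Tm, for methionine (10 and 14, then 13 and 20 counts; 0.86 ± 0.50). At 8 h they were mt-Tl1, a leucine tRNA (88 and 64, then 95 and 94 counts; 0.27 ± 0.31, edgeR adjusted p = 0.762), and mt-Tw (12 and 18 counts; 0.36 ± 0.45). For the abundant genes the 6 h point rested on replicate 2. With replicate 2 left out, the median log2 fold change of the mitochondrial genes was 0.22, beside 0.02 over all genes. With replicate 1 left out, so that replicate 2 stood alone, it was -1.68, beside -0.04 over all genes. Without the filter on low counts, 2 of 27 mitochondrial genes (mt-Co1 and mt-Nd2) were called lower at 6 h. In that fit 490 of all 35880 genes were called higher and 395 lower.

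In EG1 and LG1 cells the comparison was made at 1 h of IAA in each part of G1, with the study's looser rule (absolute log2 fold change over 0.25 and unadjusted p under 0.05). The share was 2.06% ± 0.320 after IAA and 1.93% ± 0.321 in the EG1 controls, and 2.04% ± 0.485 and 2.13% ± 0.394 in LG1 (SD, n = 2 each). The groups overlapped, and replicate 1 was above replicate 2 in each of them. Within a replicate number, the share after IAA was 1.06 and 1.08 times that of the control in EG1, and 0.99 and 0.92 times in LG1. Of the 13 mitochondrial genes tested, edgeR called none in EG1 and none in LG1 by this rule, against 1.22% (0.19% higher, 1.03% lower) and 1.02% (0.285% higher, 0.733% lower) of the 21020 genes tested. With an adjusted p, 0% were called in both. With the replicate number as a block, the looser rule called 1 of the 13 higher in each, mt-Cytb in EG1 (log2 fold change 0.25, edgeR adjusted p = 0.248) and mt-Rnr1 in LG1 (0.32, edgeR adjusted p = 0.641), beside 316 genes higher and 953 lower in EG1 and 338 and 545 in LG1. The lowest p-values in EG1 were those of mt-Nd6 (controls 0.0192% and 0.0177% of exon counts, IAA 0.0217% and 0.0204%; log2 fold change 0.24 ± 0.13 SE, edgeR adjusted p = 1.00) and mt-Nd2 (0.24 ± 0.14, edgeR adjusted p = 1.00), both complex I subunits. In LG1 they were those of mt-Rnr1, the small rRNA (0.0196% and 0.0157%, then 0.0302% and 0.0146%; 0.36 ± 0.27, edgeR adjusted p = 1.00) and mt-Te (-0.14 ± 0.18). The mt-Rnr1 value thus came from replicate 1 after IAA. The median log2 fold change was 0.21 in EG1, where 12 of 13 genes were above 0, and 0.01 in LG1, where 8 of 13 were.

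The difference of the IAA effect between EG1 and LG1 was called for none of the 13 genes (0.699% of all genes by the looser rule, 0% with an adjusted p), with a median of 0.18. The lowest p-values were those of mt-Te (0.39 ± 0.25, edgeR adjusted p = 1.00) and mt-Ta, the alanine tRNA (-1.20 ± 1.18). EG1 against LG1 gave no call among the 13 genes in controls or after IAA, and 0% of all genes in both, with medians of -0.28 and -0.10. DESeq2 called none of the 13 in any of these 5 comparisons. By the looser rule it called 12 of all genes higher and 121 lower for IAA in EG1, 28 and 49 in LG1, and 9 and 43 for the difference. For EG1 against LG1 it called 0 higher and 1 lower in controls, and 0 and 2 after IAA. In controls 1 of the 13 had an unadjusted p under 0.05 (303 of all genes), namely mt-Nd6 (-0.30 ± 0.13, edgeR adjusted p = 1.00), followed by mt-Te (-0.41 ± 0.18). After IAA mt-Rnr1 (-0.46 ± 0.27, edgeR adjusted p = 1.00) and mt-Tp (-0.26 ± 0.21) had the lowest p. An exact permutation test of 4 EG1 libraries (1.99% ± 0.273) against 4 LG1 libraries (2.08% ± 0.364) gave p = 0.629 (two-sided, smallest possible 0.0286, adjusted p = 1.0). The same exact permutation test of 4 IAA against 4 control libraries gave p = 0.971. Neither test kept same-numbered libraries together, although replicate 1 was above replicate 2 in every EG1 and LG1 group. A shift smaller than this replicate difference could therefore be missed.

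In wtSRCAP and cdSRCAP cells the comparison asks whether active or catalytically dead SRCAP can stand in for the degraded protein. The share in wtSRCAP cells was 0.449% ± 0.330 after IAA and 0.615% ± 0.00799 in controls, and in cdSRCAP cells 0.768% ± 0.0570 and 0.620% ± 0.0197 (SD, n = 2 each). The cdSRCAP groups did not overlap (exact permutation p = 0.3333, the smallest that 2 against 2 allow). Nor did cdSRCAP and wtSRCAP cells after IAA, where the wtSRCAP mean rests on libraries of 0.215% and 0.683%. Without wtSRCAP IAA replicate 1, the log2 ratio of the cdSRCAP to the wtSRCAP share after IAA went from 0.77 to 0.17, and that of wtSRCAP cells after IAA to their controls from -0.45 to 0.15. All 4 cdSRCAP libraries (0.694% ± 0.0925) against all 4 wtSRCAP libraries (0.532% ± 0.213) gave p = 0.200 in the exact permutation test (two-sided, adjusted p = 1.0 over 18 tests), the lowest of the 18. This test did not keep same-numbered libraries together either, although their deviations over the genes tested went together in these cells.

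Of the 20 mitochondrial genes tested in these cells, edgeR called none in wtSRCAP cells (0.00523% of the 19111 genes tested) and none in cdSRCAP cells (0%). It also called none between cdSRCAP and wtSRCAP in controls (0%) or after IAA (0.00523%), and none for the difference of the IAA effect (0%). DESeq2 called 0 of the 20 in each, beside 14, 3, 19, 5 and 0 of all genes higher and 7, 19, 4, 3 and 0 lower. In the first 3 comparisons and the last, 0 of the 20 had an unadjusted p under 0.05 in edgeR (1415, 1077, 730 and 150 of all genes). The median log2 fold changes were -0.29, 0.39, 0.02, 0.66 and 0.76 in this order. In wtSRCAP cells mt-Ta (controls 32 and 44 counts, IAA 4 and 41; -0.92 ± 0.58 SE, edgeR adjusted p = 0.771) and mt-Rnr2 (-0.53 ± 0.35) had the lowest p. In cdSRCAP cells these were mt-Cytb (0.0521% and 0.0622% of exon counts, then 0.0882% and 0.0805%; 0.64 ± 0.43, edgeR adjusted p = 0.996) and mt-Rnr2 (0.49 ± 0.35). Between the controls they were mt-Tm (1 and 4 counts in wtSRCAP, 15 and 16 in cdSRCAP; 2.68 ± 1.24, edgeR adjusted p = 1.00) and mt-Tl2, a leucine tRNA (0.71 ± 0.43). After IAA, 5 of the 20 had an unadjusted p under 0.05 (961 of all genes), led by mt-Tl1 (2 and 26 counts in wtSRCAP, 48 and 43 in cdSRCAP; 1.72 ± 0.67, edgeR adjusted p = 0.951) and mt-Nd6 (0.61 ± 0.24, edgeR adjusted p = 0.951). In the difference of the IAA effect they were mt-Rnr2 (1.02 ± 0.49, edgeR adjusted p = 1.00) and mt-Tl1 (1.65 ± 0.93). The wtSRCAP library with 2 counts of mt-Tl1 is again replicate 1 after IAA.

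**Figure D5:**
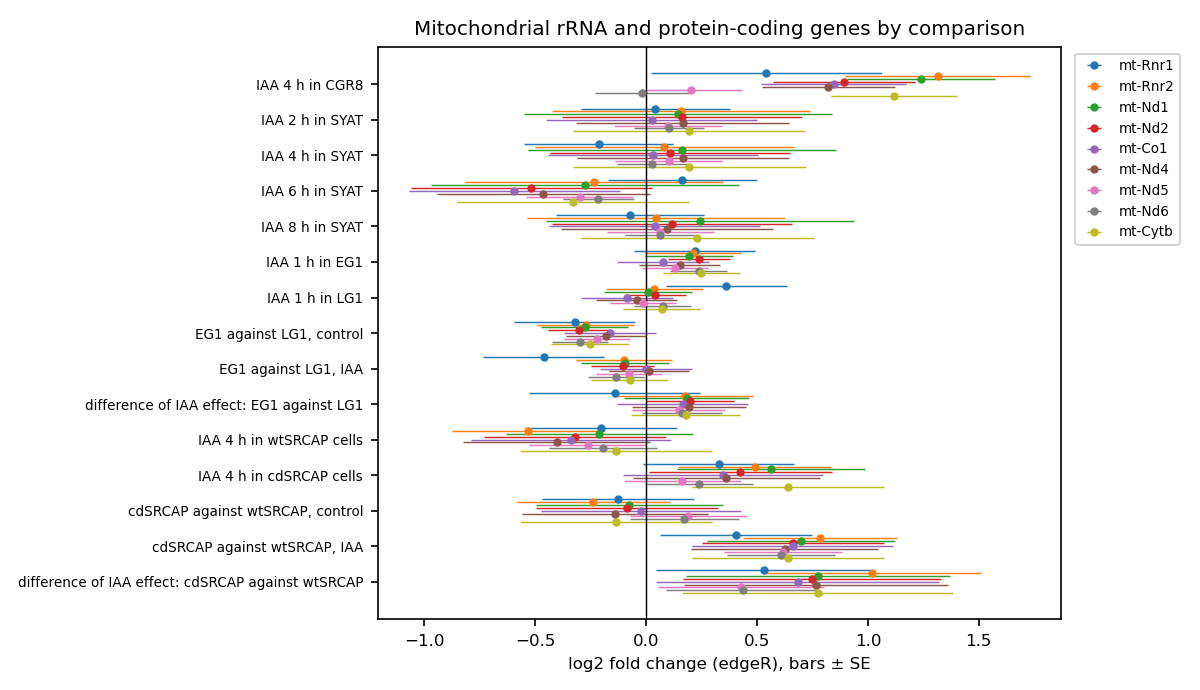
Log2 fold change of the 2 rRNA genes and 7 protein-coding genes with counts in every library, for the 15 comparisons, with points for the edgeR estimate and bars of 1 SE. In CGR8 cells mt-Nd5 (0.20) and mt-Nd6 (-0.02) sit below the other 7 genes, and no gene passed the threshold in any comparison.

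The nuclear genes that make and turn over mitochondrial RNA were set beside the mitochondrial genes. The lists held 10 genes of transcription (the RNA polymerase Polrmt, the factors Tfam and Tfb2m, the Mterf family and others), 9 of replication, 15 of RNA processing and modification, and 15 of RNA stability and decay. Of these, 10, 9, 14 and 13 passed the filter. None was called in any comparison that used an adjusted p. By the looser rule for 1 h of IAA, which called 1.22% of all genes in EG1 and 1.02% in LG1, 1 of 10 transcription genes was called in EG1, Mterf1a (-0.74 ± 0.31 SE, edgeR adjusted p = 1.00), and 1 of 10 in LG1, Mterf4 (-0.42 ± 0.14, edgeR adjusted p = 1.00). In the SYAT time course the median log2 fold change of the 10 transcription genes was -0.25, -0.30, -0.40 and -0.17 at 2, 4, 6 and 8 h. At these times 2, 1, 1 and 2 of the 10 were above 0. After IAA the median was -0.25 in wtSRCAP cells, -0.15 in cdSRCAP cells, -0.10 in EG1 and -0.15 in LG1. There 3, 2, 3 and 1 of the 10 were above 0, and the medians over all genes were -0.02, 0.02, 0.0005 and 0.01. In CGR8 cells the median was 0.34, with 8 of 10 above 0. The medians of the replication, processing and stability lists lay between -0.12 and 0.11 in the SYAT time course, and between -0.13 and 0.11 after IAA in the other cells. In LG1 6 of 9, 3 of 14 and 4 of 13 genes of these lists were above 0. The points of the time course share their controls, and the lists were not tested as sets.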

How the data were processed

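Nuclear RNA-seq of 30 libraries (15 groups of 2) was used from 4 tables. According to the study's methods, the authors used STAR to align 75-nt read pairs (build mm10) and featureCounts to count exons and introns of GENCODE vM25. They deposited whole-number counts per gene, without normalization. Only exon columns enter the comparisons. Strand and multi-mapping settings are not given in the sources used here. Deposited tables of comparisons (fold changes and p-values) were not used. The submitters' processing notes also name SAMtools 1.10, Picard and DESeq2.

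Symbols, lengths and coordinates came from GENCODE vM21 (mm10), in which all 37 members match by versioned identifier. Shares are percent of exon counts, and levels are RPKM computed here from the counts and the exon total. Tests used edgeR 4.0.16 (glmQLFit, glmQLFTest; TMM; filterByExpr by group, minimum count 10, minimum total 15; 1 fit per table) in R 4.3.3 with Benjamini-Hochberg adjustment, DESeq2 1.42.0 as an alternative, and exact permutation tests. P-values measure the spread between these duplicates only. The scripts were tested on simulated data. Nuclear copies were found with blastn 2.17.0 between mitochondrial genes and nuclear transcripts, since no genome was used here (identity at least 95%, and at least 250 bases rather than the 500 first set, which keeps 11 copies instead of 8). Named members are all protein-coding and rRNA genes, the most and least counted tRNAs, and in each comparison the members called or else the 2 with the lowest p. Alternatives were other scaling, filter, tool, replicate block, groups fitted, denominators and single libraries left out. Same-numbered libraries deviated together in EG1 and LG1 (correlations 0.37 to 0.59, 6 of 6 pairs of groups) and in wtSRCAP and cdSRCAP cells (0.26 to 0.38, 6 of 6), a pairing taken from the data, since no label states it. Members and lists were chosen with earlier results of these data known. Labels give auxinole in another unit than the methods, so no dose is printed. Counting error was small against the replicate spread, with Wilson intervals of 95% around each share.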

Additional observations from a re-analysis of the deposited data

Results flagged for a closer look

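The intron columns were outside the comparisons, and mitochondrial genes, which have no introns, held counts there in 14 of 30 libraries. In the SYAT time course they reached 495730 counts (lowest 94191) and in EG1 560007 counts (lowest 404501), above the limit that a count of 0 allows. These were 93.4% to 98.3% of the exon counts of the same genes, and fell on 22 of the 37 genes. In the other 16 libraries (CGR8, LG1, wtSRCAP and cdSRCAP cells) the mitochondrial genes had 0 counts in the intron columns. LG1 and EG1 stand in the same table, so an intron count does not cover the same reads in both. The cause was not tested.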

How the results depend on the processing

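Over 13 comparisons and 2 differences of effects, the median log2 fold change of the mitochondrial genes moved by less than the replicate spread under all 87 settings that keep every library, and the log2 ratio of the summed shares under all 52. This is a loose measure, since single libraries that stand apart widen that spread (pooled SD of the log2 share 0.72 in the time course). The number of genes called, 0 in every comparison, moved in 6 of 87. Without the filter on low counts it was 9 for IAA in CGR8 cells, 2 at 6 h in SYAT cells and 1 in EG1. Over all genes these fits called 276 higher and 110 lower in CGR8 cells, 490 and 395 at 6 h, and 107 and 519 in EG1. With the replicate block the number of mitochondrial genes called was 7 for IAA in CGR8 cells (all higher, beside 320 genes higher and 180 lower in all). It was 1 each in EG1 (mt-Cytb) and LG1 (mt-Rnr1). The block changed no other call of a mitochondrial gene.

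When single libraries were left out, the number called ranged from 0 to 14 in CGR8 cells, 0 to 9 at 6 h in SYAT cells, 0 to 2 for IAA in LG1 and 0 to 1 for the difference between EG1 and LG1. Each of these fits left a single library in a group, so the counts are not read as calls. In the fits with the highest counts in CGR8 cells and at 6 h, many genes outside the mitochondrial set were called as well. The log2 ratio of the shares ranged from -1.94 to 0.27 at 6 h in SYAT cells, -1.51 to 0.15 for IAA in wtSRCAP cells and 0.17 to 1.83 for cdSRCAP against wtSRCAP after IAA. Where the lone library left was that with a low share, it decided the value: the median log2 fold change was then -1.68 at 6 h in SYAT cells (0.22 with the other library), -1.26 for IAA in wtSRCAP cells, 1.66 for cdSRCAP against wtSRCAP after IAA, and 1.77 for the difference of their IAA effects (0.12 with the other). The cause of the other changes was not tested. The labels do not say that replicate numbers mark shared batches. The deviations of same-numbered libraries from their group means had correlations of 0.07 in CGR8 cells (1 pair) and -0.04 to 0.59 in the time course (over 0.1 in 6 of 10 pairs). Most pairs of groups in the time course thus deviated together, but not all. Neither set of libraries is treated as paired in the main fits.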
